A study of Homo sapiens with 30 samples.

Results

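DUSP10, RGMB, RGMB-AS1, GRB14, SLFN12 and HCN4 are 6 of the 27348 genes with counts in both replicates of an RNA sequencing study of RUES2 cells, an established human embryonic stem cell line. They were picked by their 24 h values: in each, the response to 1 day of Wnt3a was not the same with the BET bromodomain inhibitor CPI-203 as without it. In 5 of the 6 (DUSP10, RGMB, RGMB-AS1, GRB14 and SLFN12) the gene was higher after Wnt3a alone. With CPI-203 present the Wnt3a effect on the log2 scale was -0.11 to 0.34 for DUSP10, RGMB, RGMB-AS1 and GRB14. For SLFN12 it was -0.95, a change of sign. HCN4 was highest where Wnt3a and CPI-203 were combined. Because those 24 h libraries chose the genes, their values at 24 h are given as a description with no test. Tests were made on the 48 h libraries. The genes were proposed with earlier results of these data known, so those tests are not independent of the choice in the strict sense.

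The cells were kept in TeSR E7 medium with a ROCK inhibitor. On day 1 they received no addition (E7), CPI-203 at 1 µM (E7_CPI), Wnt3a at 100 ng/mL (WNT), or both (WNT_CPI), and these 4 groups were collected at 24 h. Of the 4 groups collected at 48 h, E7_ACT had E7 medium on day 1 and Activin A at 10 ng/mL on day 2, WNT_ACT had Wnt3a and then Activin A, WNT_CPI_ACT had Wnt3a with CPI-203 and then Activin A, and WNT_E7 had Wnt3a and then medium alone. Per the labels, CPI-203 was a day 1 treatment. Each group had 2 RNA libraries, and all came from this single line. The labels do not say whether replicates were separate cultures, so the p-values cover only the spread seen between these libraries, which may be technical. Library totals were 36268324 to 43347733 counts.

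Wnt3a is a secreted ligand that stabilises β-catenin, which then acts with TCF and LEF factors at target genes, and in pluripotent cells it starts the programme of the primitive streak. BET proteins read acetylated histones and help RNA polymerase II to elongate, and compounds of the CPI-203 type displace them from chromatin. Activin A signals through SMAD2 and SMAD3 and drives Wnt-primed cells toward mesendoderm. Of the 6 genes, DUSP10 encodes a dual-specificity phosphatase that inactivates the stress kinases p38 and JNK, and RGMB encodes a membrane-anchored co-receptor for bone morphogenetic proteins (BMPs). RGMB-AS1 is an antisense noncoding RNA at the RGMB locus. GRB14 is an adaptor that binds the activated insulin receptor and restrains it, SLFN12 is a Schlafen family protein that can form a complex with the phosphodiesterase PDE3A, and HCN4 is a pacemaker channel opened by hyperpolarisation and cyclic nucleotides.

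The 250 bases before annotated start sites are shown to place these genes and to show where the textbook TCF/LEF letters do and do not occur. RefSeq's table for GRCh38.p14 held 9 such windows for 5 of the genes. RGMB-AS1 is named only. Each window was searched on both strands for CTTTGAT (reverse complement ATCAAAG), which 2.26% of 35116 windows of this length hold, and for CTTTGTT (reverse complement AACAAAG), which 4.50% hold. The 2 motifs share their first 5 letters and cannot match at the same position. Of the 9 windows, 1 held a match: a GRB14 window at chr2:164568496-164568745 (minus strand), with 1 match to each motif, the first starting at base -222 from the start site. The lines below run 5′ to 3′ along the gene's strand, with matches in capitals. They show that GRB14 window, a DUSP10 window at chr1:221742090-221742339 (minus strand), an RGMB window at chr5:98768382-98768631 (plus strand), the SLFN12 window at chr17:35433175-35433424 (minus strand) and the HCN4 window at chr15:73368959-73369208 (minus strand).
GRB14: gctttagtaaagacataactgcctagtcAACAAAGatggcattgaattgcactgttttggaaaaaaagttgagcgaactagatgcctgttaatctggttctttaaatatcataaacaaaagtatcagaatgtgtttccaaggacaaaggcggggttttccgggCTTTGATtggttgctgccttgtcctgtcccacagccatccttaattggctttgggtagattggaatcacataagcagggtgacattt
DUSP10: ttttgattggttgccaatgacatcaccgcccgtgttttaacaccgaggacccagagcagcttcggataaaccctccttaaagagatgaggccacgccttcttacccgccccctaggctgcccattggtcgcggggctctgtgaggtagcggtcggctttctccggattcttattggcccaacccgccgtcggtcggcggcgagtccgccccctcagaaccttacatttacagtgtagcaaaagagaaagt
RGMB: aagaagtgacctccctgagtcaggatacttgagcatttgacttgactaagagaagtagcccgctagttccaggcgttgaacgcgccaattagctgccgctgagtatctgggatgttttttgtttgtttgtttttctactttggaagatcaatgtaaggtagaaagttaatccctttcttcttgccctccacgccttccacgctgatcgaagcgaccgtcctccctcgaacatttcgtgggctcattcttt
SLFN12: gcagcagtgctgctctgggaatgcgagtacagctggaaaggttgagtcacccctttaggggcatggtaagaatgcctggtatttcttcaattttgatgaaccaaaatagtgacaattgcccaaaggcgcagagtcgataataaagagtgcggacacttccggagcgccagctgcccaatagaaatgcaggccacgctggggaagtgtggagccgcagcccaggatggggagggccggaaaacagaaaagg
HCN4: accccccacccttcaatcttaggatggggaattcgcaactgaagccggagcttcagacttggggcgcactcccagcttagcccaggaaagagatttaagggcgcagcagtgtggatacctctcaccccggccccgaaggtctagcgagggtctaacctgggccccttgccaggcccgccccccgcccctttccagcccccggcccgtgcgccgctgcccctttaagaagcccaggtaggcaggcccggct
Among the 5 windows shown, GC content ran from 40.8% for GRB14 to 65.2% for HCN4. A match is a description of letters, not a site of binding, and the windows without one say nothing of binding elsewhere.

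The library labelled E7_CPI replicate 1 went against its labels, and it enters every 24 h value with CPI-203 alone. Against the gene names beside it, the column had a rank correlation of at most 0.0066 with any other library. With the names of the replicate 2 table set beside it the correlations were 0.954 to 0.986, and 12 cells at its foot were empty. Read that way, it lay among the replicate 2 libraries, at -0.881 on the axis that separates replicate numbers. E7_CPI replicate 2 was at -0.801, the other replicate 2 libraries were at -1.31 to -0.586, and the other replicate 1 libraries at 0.672 to 1.27. The counts of the 2 E7_CPI libraries differed by a chi-square of 3.25 per degree of freedom, against 96.9 to 164 within the other groups. Their difference is thus above sampling noise but far below that of any other pair, and with E7_CPI the spread shared by all groups is smaller. The files do not tell whether the 2 E7_CPI libraries are separate samples. If they are not, E7_CPI has 1 sample, and the SEs given for values with E7_CPI are too small. Results are therefore given with and without this library. Unless a replicate block is named, a call lost without it was lost in the fit with no replicate term.

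**Figure D1:**
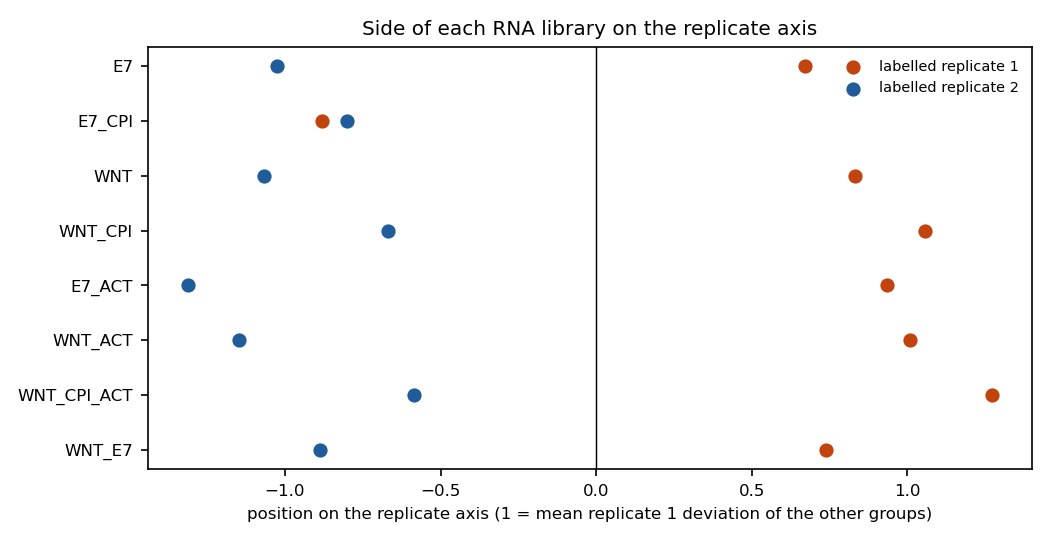
Position of each of the 16 RNA libraries (horizontal axis, no unit, 1 being the mean replicate 1 deviation of the other groups) by group (vertical axis), coloured by labelled replicate number. The 2 E7_CPI libraries lie together on the replicate 2 side, at -0.881 and -0.801, while the 2 libraries of each other group lie on opposite sides of 0.

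The treatments showed in genes outside the 6. AXIN2, a feedback inhibitor and common readout of Wnt signalling, had a mean of 112 CPM (counts scaled to library size, with TMM factors) in WNT against 54.3 in E7, and of 134 in WNT_CPI against 15.8 in E7_CPI. HEXIM1, which holds P-TEFb inactive and commonly rises under BET inhibitors, averaged 280 CPM in E7_CPI and 302 in WNT_CPI, against 80.3 in E7 and 77.5 in WNT. At 48 h HEXIM1 averaged 89.6 CPM in WNT_CPI_ACT and 78.4 in WNT_ACT. The 8 pluripotency markers counted summed to between 5448 and 9361 CPM in every library, with PODXL and LIN28A the largest parts. At 24 h, in the libraries that chose the 6 genes, several of them were far lower with CPI-203: NANOG averaged 0.871 CPM in E7_CPI and 1.27 in WNT_CPI against 91.9 in E7 and 167 in WNT, DPPA4 250 and 129 against 1062 and 992, ZSCAN10 61.6 and 42.0 against 262 and 263, and POU5F1 274 and 264 against 559 and 653. L1TD1 was also lower, at 570 and 352 against 1478 and 1275 CPM, and LIN28A less so, at 1871 and 1787 against 2254 and 2384. The list did not fall as a whole. SOX2 was higher in E7_CPI (413 against 317 in E7) and lower in WNT_CPI (300 against 351 in WNT). PODXL was higher in E7_CPI (4145 against 3062) and alike in WNT_CPI and WNT (3012 and 2989). The part of these marker changes in the 24 h values of the 6 genes was not tested. Of 8 fibroblast markers, COL3A1, DCN, LUM and FAP stayed under 10 counts in all libraries. The other 4 were counted, with group means of 177 to 685 CPM for THY1, 81.5 to 309 for COL1A1, 60.3 to 175 for COL1A2 and 2.86 to 26.2 for PDGFRB, and the list summed to 375 to 1043 CPM.

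DUSP10 was almost silent in untreated cells and was higher under either agent alone at 24 h, more so under Wnt3a. It measured 0.739 and 0.597 CPM in the 2 E7 libraries, 8.58 and 8.45 in WNT, 3.05 and 2.87 in E7_CPI, and 3.11 and 4.36 in WNT_CPI. The 2 WNT libraries were thus the highest of the 24 h set and the 2 E7 libraries the lowest, with no overlap. Wnt3a alone gave a log2 fold change of 3.67 (SE 0.22, n = 2 per group), 12.7-fold, and CPI-203 alone gave 2.14 (SE 0.21). In the presence of CPI-203 the Wnt3a effect was 0.34 (SE 0.19), with 0.03 and 0.60 within the replicate numbers. Combining the agents thus left DUSP10 near its level under CPI-203 alone and below its level under Wnt3a alone, by 1.19 on the log2 scale.

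RGMB was expressed in untreated cells and was highest under Wnt3a alone at 24 h. It measured 24.1 and 22.2 CPM in E7, 108.9 and 110.6 in WNT, 35.2 and 35.5 in E7_CPI, and 30.8 and 39.2 in WNT_CPI. The WNT pair stood alone, and the WNT_CPI pair straddled the E7_CPI pair. The Wnt3a effect was 2.25 (SE 0.22) on the log2 scale without CPI-203 and -0.02 (SE 0.21) with it, while CPI-203 alone gave 0.61 (SE 0.21).

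RGMB-AS1 was low in E7, E7_CPI, WNT_CPI and E7_ACT and higher in the other 4 groups. At 24 h it measured 0.858 and 0.836 CPM in E7, 0.796 and 0.753 in E7_CPI and 0.612 and 0.827 in WNT_CPI, against 13.4 and 8.45 in WNT. In counts, the WNT libraries held 571 and 302, and the WNT_CPI libraries 25 and 34. The Wnt3a effect was 3.68 (SE 0.27) on the log2 scale without CPI-203 and -0.11 (SE 0.27) with it. RGMB-AS1 lies inside the RGMB span in RefSeq. Whether reads were counted by strand is not given in the sources used here, so reads of the 2 genes cannot be told apart with certainty. Under CPI-203 alone RGMB-AS1 was at -0.13 (SE 0.26) and RGMB at 0.61.

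Relative to its level, GRB14 differed more between replicates than the other genes in E7, E7_CPI, WNT, E7_ACT and WNT_E7. It did not in WNT_CPI, WNT_ACT or WNT_CPI_ACT. Its replicate 1 value was the higher in each group except E7_CPI. It measured 12.4 and 6.78 CPM in E7, 42.3 and 23.6 in WNT, 14.7 and 17.5 in E7_CPI, and 18.3 and 14.9 in WNT_CPI. The WNT pair was above all other 24 h libraries, and the CPI-203 groups overlapped each other. Within replicate numbers, Wnt3a alone gave 1.76 and 1.80 on the log2 scale (fitted value 1.78, SE 0.38). With CPI-203 the Wnt3a effect was 0.05 (SE 0.37), and within replicate numbers it was 0.32 and -0.23, the first of which uses the E7_CPI library that lay with replicate 2.

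SLFN12 was highest under CPI-203 alone, and the sign of its Wnt3a response turned with the inhibitor. It measured 8.08 and 7.19 CPM in E7, 17.5 and 14.7 in WNT, 30.7 and 32.9 in E7_CPI, and 15.97 and 16.89 in WNT_CPI. The E7_CPI pair was the highest and the E7 pair the lowest, while WNT and WNT_CPI overlapped. Wnt3a gave 1.08 (SE 0.21) on the log2 scale without CPI-203 and -0.95 (SE 0.21) with it. CPI-203 gave 2.06 (SE 0.21) in E7 medium and 0.03 (SE 0.21) in Wnt3a.

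HCN4 was the gene of the 6 whose highest 24 h group was WNT_CPI. It measured 20.8 and 23.6 CPM in E7, 17.0 and 18.1 in WNT, and 23.6 and 26.2 in E7_CPI, against 75.2 and 86.1 in WNT_CPI. Both WNT_CPI libraries were above all other libraries of the study. CPI-203 gave 2.20 (SE 0.23) on the log2 scale in Wnt3a, 4.60-fold, and 0.17 (SE 0.23) in E7 medium. Wnt3a gave -0.34 (SE 0.23) without CPI-203 and 1.69 (SE 0.23) with it.

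Without E7_CPI replicate 1, the Wnt3a effect with CPI-203 was 0.38 on the log2 scale for DUSP10, -0.02 for RGMB, -0.07 for RGMB-AS1, -0.08 for GRB14, -1.003 for SLFN12 and 1.62 for HCN4. With a replicate block added it was 0.38 for DUSP10, 0.10 for RGMB, -0.07 for RGMB-AS1 and -0.35 for GRB14. For SLFN12 it was then -1.10 and for HCN4 1.73. The direction described thus held for SLFN12 and HCN4, and the value for GRB14 depended on the setting. E7_CPI has 1 library in these fits.

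**Figure D2:**
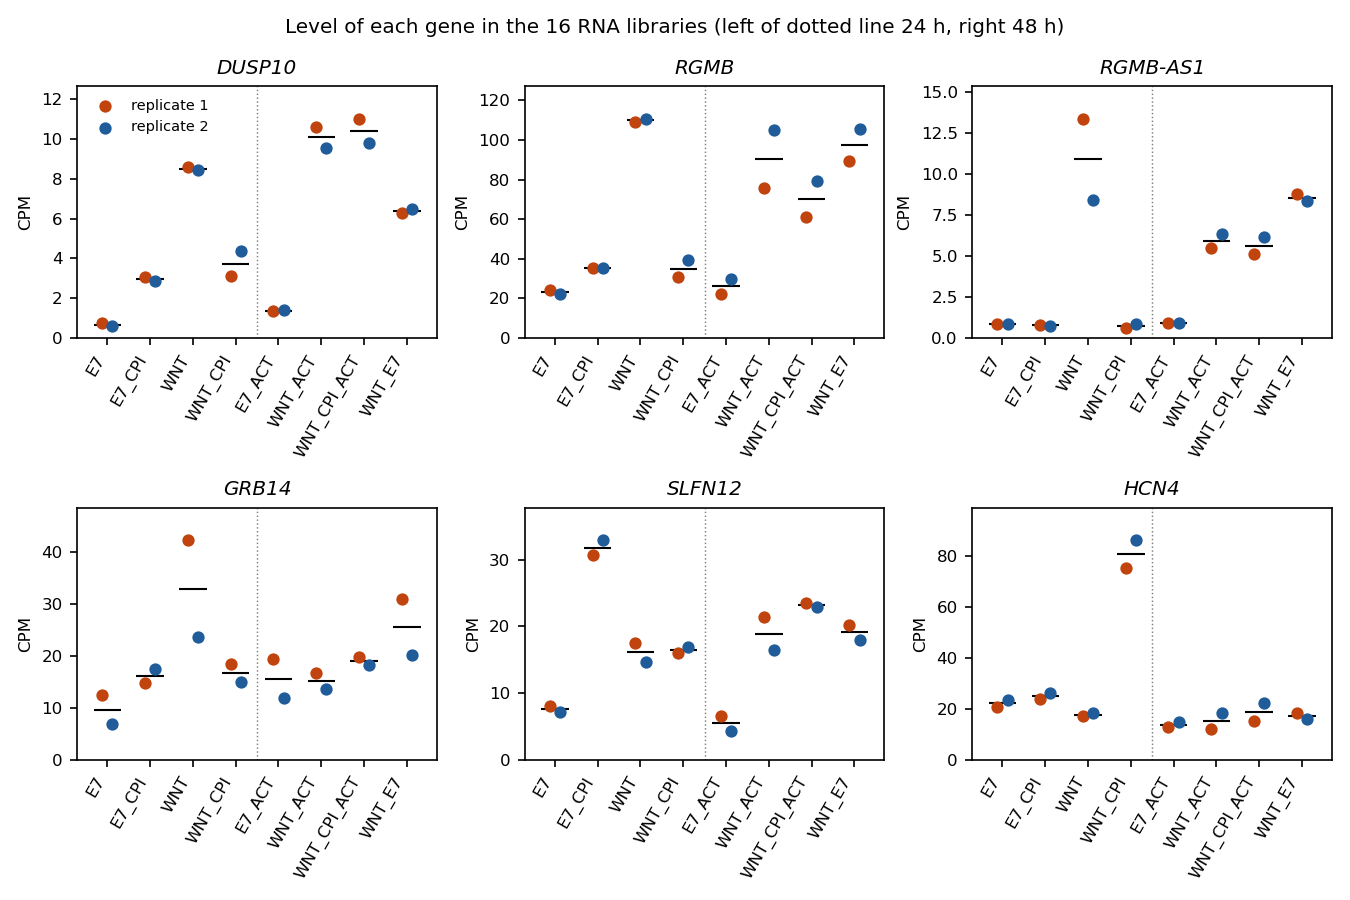
CPM of each gene (vertical axes, linear from 0, own scale per panel) in the 8 groups (horizontal axes), with points for the 2 libraries of a group and a line for their mean. At 24 h the WNT group is the highest for DUSP10, RGMB, RGMB-AS1 and GRB14, E7_CPI for SLFN12 and WNT_CPI for HCN4, and at 48 h the 3 groups that began with Wnt3a lie above E7_ACT for DUSP10, RGMB, RGMB-AS1 and SLFN12.

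The first tested question was what a day of Wnt3a left behind after a day of Activin A, comparing WNT_ACT with E7_ACT at 48 h. Of the 6 genes, 4 rose, and DUSP10 rose most. Over all genes tested, 3.84% were called in either direction and 2.48% were higher. DUSP10 measured 1.37 and 1.39 CPM in E7_ACT and 10.6 and 9.57 in WNT_ACT, which do not overlap. Its log2 fold change was 2.87 (SE 0.21, n = 2 per group, edgeR adjusted p = 0.000124), 7.29-fold. RGMB-AS1 measured 0.914 and 0.912 CPM in E7_ACT and 5.51 and 6.33 in WNT_ACT. It rose by 2.69 (SE 0.26, adjusted p = 0.000715), again with no overlap.

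RGMB and SLFN12 rose by like amounts in the same comparison. RGMB measured 22.0 and 30.0 CPM in E7_ACT and 75.9 and 105.1 in WNT_ACT, a log2 fold change of 1.80 (SE 0.21, edgeR adjusted p = 0.0019). SLFN12 measured 6.59 and 4.28 CPM in E7_ACT and 21.4 and 16.4 in WNT_ACT, also 1.80 (SE 0.21, adjusted p = 0.0019). For both, each WNT_ACT library was above each E7_ACT library. GRB14, at 19.3 and 11.8 CPM in E7_ACT and 16.7 and 13.6 in WNT_ACT, was not called: its log2 value was -0.04 with a 95% interval of -0.85 to 0.77. HCN4, at 12.6 and 14.8 CPM against 11.8 and 18.3, was not called either, at 0.13 with an interval of -0.37 to 0.63.

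The 4 calls did not rest on E7_CPI replicate 1. Without it, edgeR called DUSP10 (adjusted p = 0.000629), RGMB-AS1 (0.00269), RGMB (0.00614) and SLFN12 (0.00596), while the share of all genes called fell to 2.13%. With the replicate number as a block 8.69% of genes were called, and the members called were again these 4. Fitted on the 4 compared libraries alone, edgeR called none of the genes tested, and the adjusted p of the 4 was 0.150 to 0.227, at an unadjusted p under 0.05 in all 4.

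The second tested question was what CPI-203 on day 1 left behind at 48 h, comparing WNT_CPI_ACT with WNT_ACT, which share WNT_ACT with the first comparison. None of the 6 genes was called by edgeR, none had an unadjusted p under 0.05 in the fit without a replicate term, and DESeq2 called none, against 5.9% of all genes tested (3.64% without E7_CPI replicate 1 and 15.1% with the replicate block, where none of the 6 was called either). DUSP10 measured 11.0 and 9.82 CPM in WNT_CPI_ACT against 10.6 and 9.57 in WNT_ACT, with a log2 difference of 0.05 and a 95% interval of -0.37 to 0.46. RGMB measured 60.9 and 79.2 CPM against 75.9 and 105.1, at -0.37 (-0.83 to 0.09). Within the replicate numbers RGMB gave -0.32 and -0.41, and with the replicate block its unadjusted p was 0.0276 (edgeR adjusted p = 0.1202; without E7_CPI replicate 1 also, 0.0197 and 0.0787). RGMB-AS1 measured 5.11 and 6.17 CPM against 5.51 and 6.33, at -0.07 (-0.59 to 0.45). For all 3 genes the groups overlapped when libraries are taken without their replicate numbers.

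GRB14, SLFN12 and HCN4 were likewise close between those groups. GRB14 measured 19.7 and 18.2 CPM in WNT_CPI_ACT, above both WNT_ACT libraries, at 0.33 (-0.48 to 1.14). SLFN12 measured 23.5 and 22.8 CPM, also above both WNT_ACT libraries, at 0.30 (-0.16 to 0.75). HCN4 measured 15.2 and 22.1 CPM, overlapping WNT_ACT, at 0.31 (-0.19 to 0.81). The change between the days was not tested, since the 24 h libraries chose the genes. These intervals leave room for differences of up to 0.83 on the log2 scale downward for RGMB and 1.14 upward for GRB14.

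**Figure D3:**
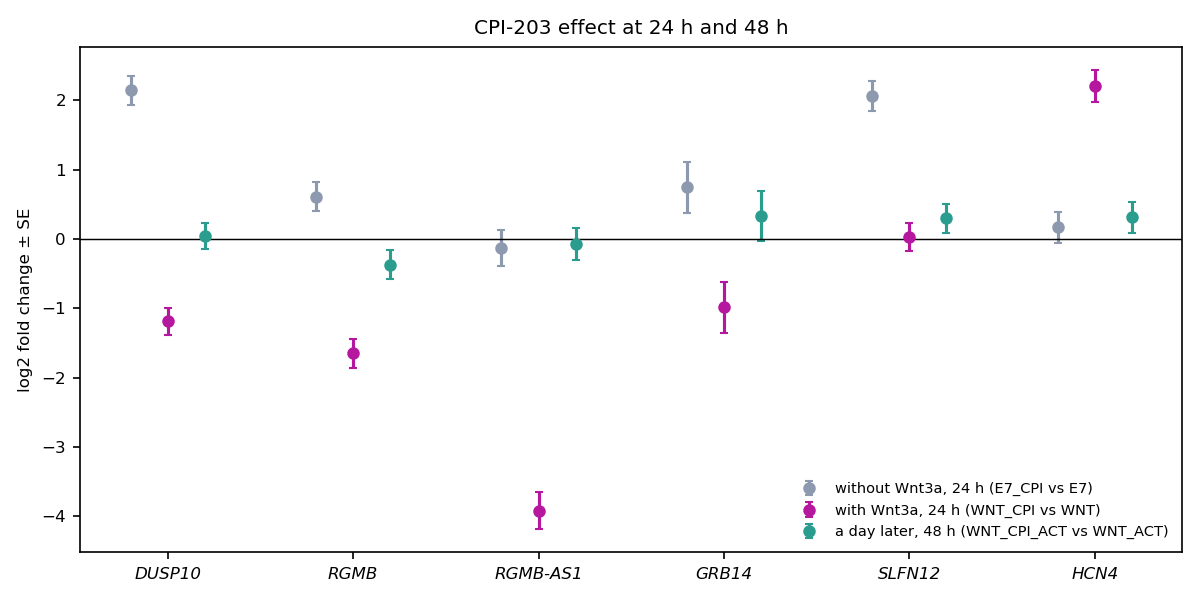
Log2 fold change for CPI-203 against its control (vertical axis) for each gene, as points with bars of 1 SE, at 24 h in E7 medium, at 24 h in Wnt3a and at 48 h after Wnt3a and Activin A. At 24 h in Wnt3a the values run from -3.92 for RGMB-AS1 to 2.20 for HCN4, and at 48 h all 6 lie between -0.37 and 0.33.

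**Figure D4:**
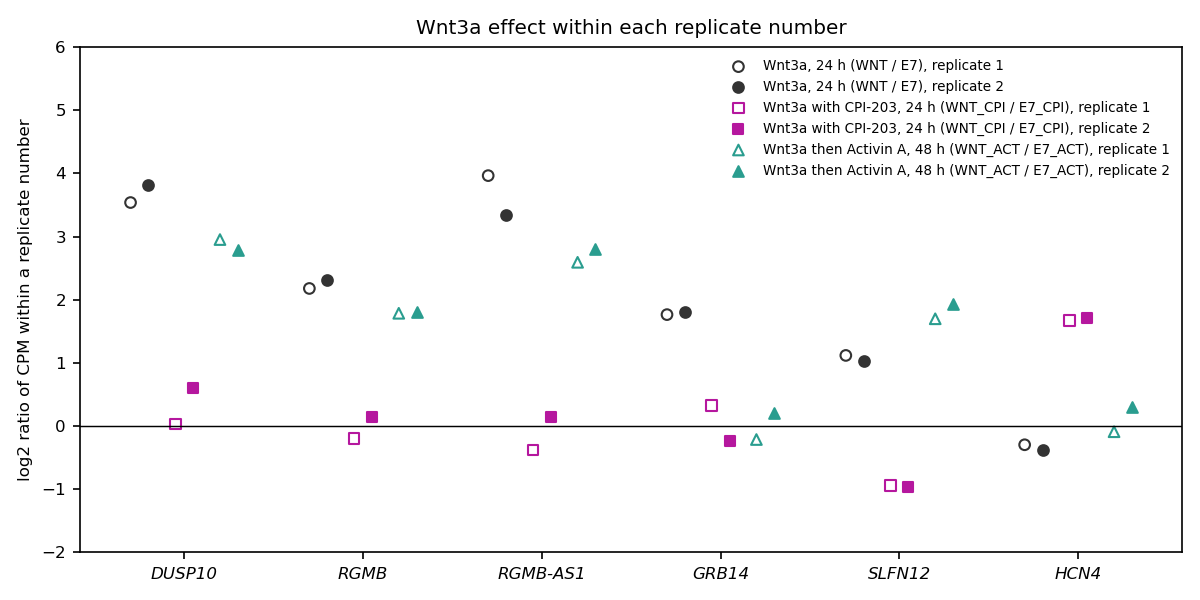
Log2 ratio of CPM for Wnt3a against its control within each replicate number (vertical axis; open symbols replicate 1, filled replicate 2) for each gene, at 24 h without CPI-203, at 24 h with CPI-203 and at 48 h after Activin A. DUSP10, RGMB, RGMB-AS1 and SLFN12 are at or above 1.70 at 48 h in both replicate numbers, and GRB14 and HCN4 lie on both sides of 0; replicate 1 points with CPI-203 use the E7_CPI library that lay with replicate 2.

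Between WNT_CPI at 24 h and WNT_CPI_ACT at 48 h, a day in which CPI-203 was no longer listed and Activin A was added, the log2 difference to the arm without the inhibitor became smaller in size for DUSP10, RGMB, RGMB-AS1, GRB14 and HCN4, and not for SLFN12. The mean log2 ratio was 1.499 for DUSP10 (1.83 and 1.17 within the replicate numbers), 1.00 for RGMB, 2.98 for RGMB-AS1 (3.06 and 2.90), 0.50 for SLFN12, 0.20 for GRB14 and -2.13 for HCN4 (-2.30 and -1.97). The matching ratio of WNT_ACT to WNT was 0.24 for DUSP10, -0.30 for RGMB, -0.85 for RGMB-AS1, 0.22 for SLFN12, -1.07 for GRB14 and -0.25 for HCN4. The ratio of the arm with CPI-203 was thus above that of the arm without it for DUSP10, RGMB, RGMB-AS1, GRB14 and SLFN12, and below it for HCN4. In the arm with CPI-203, time, the end of Wnt3a and CPI-203 and the addition of Activin A changed together and cannot be told apart. In the arm without it, WNT_E7 covers the same day without Activin A. The ratio of WNT_E7 to WNT was -0.42 for DUSP10, -0.18 for RGMB and -0.31 for RGMB-AS1. It was -0.34 for GRB14, 0.25 for SLFN12 and -0.04 for HCN4. Time and the end of Wnt3a changed together there too. These ratios are descriptions, as they use the 24 h libraries.

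The third tested question was whether Activin A on day 2 moved the genes in cells that had received Wnt3a, comparing WNT_ACT with WNT_E7. The WNT_ACT libraries also serve in both comparisons above. None of the 6 was called by edgeR, against 0.882% of all genes tested (0.124% without E7_CPI replicate 1 and 4.45% with the replicate block, none of the 6 in either). Of the 6, 2 had an unadjusted p under 0.05. DUSP10 measured 6.28 and 6.47 CPM in WNT_E7 and 10.6 and 9.57 in WNT_ACT, without overlap, at 0.66 (SE 0.19, edgeR adjusted p = 0.147), and DESeq2 called it (0.68, adjusted p = 0.0128). RGMB-AS1 measured 8.80 and 8.36 CPM in WNT_E7 and was lower in both WNT_ACT libraries, at -0.54 (SE 0.23, adjusted p = 0.467).

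The other 4 genes differed less in that comparison relative to their error. RGMB, at 89.6 and 105.3 CPM in WNT_E7, gave -0.11 (95% interval -0.56 to 0.35). GRB14, at 30.9 and 20.1 CPM in WNT_E7, was higher there than in both WNT_ACT libraries and gave -0.76 (-1.57 to 0.05). It was called only with the replicate block and without E7_CPI replicate 1 (-0.73, adjusted p = 0.0393), a setting added after the data were seen. SLFN12, at 20.2 and 18.0 CPM in WNT_E7, gave -0.01 (-0.47 to 0.44), and HCN4, at 18.28 and 15.99 CPM, gave -0.19 (-0.69 to 0.31).

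Ranked over all 8 groups, the 6 genes had different orders. DUSP10 was highest in WNT_CPI_ACT and WNT_ACT, which overlapped, then WNT, WNT_E7, WNT_CPI, E7_CPI, E7_ACT and E7, with no overlap between any later neighbours. RGMB ran from WNT through WNT_E7, WNT_ACT and WNT_CPI_ACT, of which the last 3 overlapped as neighbours, to E7_CPI and WNT_CPI, which overlapped, and then E7_ACT and E7, which overlapped. RGMB-AS1 had the same 4 groups on top, all 8 libraries at or above 5.11 CPM, and the other 4 groups at or below 0.914 CPM. GRB14 overlapped between neighbours except below WNT_E7 and between WNT_ACT and E7, and SLFN12 was lowest in E7_ACT and next lowest in E7, each apart from its neighbours. HCN4 had no overlap between WNT_CPI and E7_CPI or between E7_CPI and E7, and every later pair of neighbours overlapped. The nearest E7_CPI and E7 libraries were barely apart, at 23.63 and 23.55 CPM.

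Over the 8 group means of log2 CPM (prior count 2), Pearson's r was 0.96 between RGMB and RGMB-AS1, which share a locus, 0.90 between DUSP10 and RGMB, 0.73 between DUSP10 and GRB14 and -0.51 between RGMB-AS1 and HCN4. These correlations are descriptions over 8 groups that share libraries and the choice of genes. By the same measure, the genes most like DUSP10 were LAMB1, a laminin subunit (r = 0.97), CDK8, a Mediator kinase (0.96), and PGM1, a sugar phosphate mutase (0.93). Pearson's r does not weigh the size of a change: group means ran from 38.3 to 45.1 CPM for CDK8 and from 0.668 to 10.4 for DUSP10. After RGMB-AS1, RGMB was most like INSYN2B and BMP4 (0.96 and 0.95), although INSYN2B averaged at most 0.56 CPM in any group. BMP4, a ligand of the pathway in which RGMB is a co-receptor, averaged 2.47 CPM in E7, 8.03 in WNT and 2.55 in WNT_CPI. RGMB-AS1 was most like DNTT and C15orf61 (both 0.97) and BMP4 (0.96), although DNTT averaged at most 0.779 CPM in any group.

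The closest genes to GRB14 had lower r: C4orf54 (0.89), BMS1P2 (0.87) and C1orf74 (0.86), and BMS1P2 averaged at most 0.389 CPM in any group. SLFN12 was most like SLFN11 (0.95), another Schlafen gene, FAM86B1 (0.94) and SPRED2, an inhibitor of RAS and MAPK signalling (0.94). SLFN11 averaged 1.90 CPM in E7, 5.73 in E7_CPI, 2.91 in WNT and 4.74 in WNT_CPI, while SLFN12 averaged 16.1 in WNT and 16.4 in WNT_CPI. HCN4 was most like the nuclear noncoding RNA MALAT1, the exosome ribonuclease DIS3 and the helicase DHX29 (all 0.98). MALAT1 averaged 199 CPM in WNT_CPI against 64.8 to 84.4 in the other groups, DIS3 149 against 104 to 109, and DHX29 157 against 93.9 to 115. These 3 genes were picked for their likeness to HCN4, whose own profile peaks in WNT_CPI, so their peak there follows from the choice.

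Among 20 other MAPK phosphatases and stress kinases, the setting of DUSP10, 18 were tested (MAPK11 and MAPK12 had no counts). Between E7_ACT and WNT_ACT 2 rose and 0 fell, with a median log2 fold change of 0.16 against -0.01 over all genes. DUSP4, an ERK phosphatase, rose by 2.45 (SE 0.29, adjusted p = 0.0019) and MAPK10, a JNK, by 2.01 (SE 0.43, adjusted p = 0.0303, 0.0511 without E7_CPI replicate 1). With the replicate block 3 rose and 3 fell. Between WNT_ACT and WNT_CPI_ACT, where DUSP10 was not called, 1 rose and 3 fell, with DUSP8 (-2.07) and DUSP2 (-1.94) falling most and DUSP6 higher by 0.96, a call lost without E7_CPI replicate 1 (adjusted p = 0.077). There 7 fell with the block. Between WNT_E7 and WNT_ACT none was called by edgeR (4 had an unadjusted p under 0.05), and DESeq2 called 2.

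Of 26 genes of the RGM family and BMP signalling, all tested, 4 rose and 2 fell between E7_ACT and WNT_ACT, with a median of 0.08. BMP2, a ligand, went from 1.52 and 1.65 CPM to 47.8 and 9.01 (4.17, SE 0.69, adjusted p = 0.00956), and CHRD, a secreted antagonist, rose by 3.65 (SE 0.78). SMAD7 and ID4 fell by 1.70 and 0.94, calls lost without E7_CPI replicate 1 in the fit with no replicate term (adjusted p = 0.0806 and 0.081). With the replicate block edgeR called both (adjusted p = 0.0147 and 0.013). In the list 4 rose and 5 fell with the block, with or without that library. Between WNT_ACT and WNT_CPI_ACT 2 rose and 2 fell. RGMA, the paralogue of RGMB, rose there by 1.47 (SE 0.31, adjusted p = 0.0229) from 28.6 and 45.4 to 66.2 and 138 CPM, and ID2, a BMP target, rose by 1.27, while BMP2 (-2.64) and SMAD6 (-1.72) fell, both lost without that library (0.0652 and 0.0821). With the block 8 fell. Between WNT_E7 and WNT_ACT, BMP2 alone was called by edgeR (4.49, adjusted p = 0.0297, 0.0653 without that library), and its 2 WNT_ACT libraries differ widely.

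Of 20 insulin receptor signalling genes around GRB14, edgeR called none between E7_ACT and WNT_ACT, and none between WNT_E7 and WNT_ACT. An unadjusted p under 0.05 was found for 4 and 2 genes, and DESeq2 called 2 and 1. With the replicate block 2 rose and 3 fell in the first and 2 rose in the second. IRS2, a docking protein of the receptor, fell between WNT_ACT and WNT_CPI_ACT by 0.83 (SE 0.16, adjusted p = 0.0137), the only call of the list there, against 5 that fell with the block. Of 8 Schlafen genes and SLFN12 partners, 6 were tested. SLFN13 (1.64, SE 0.26, adjusted p = 0.00742) and SLFN11 (1.42, SE 0.19, adjusted p = 0.00416) rose between E7_ACT and WNT_ACT, as SLFN12 did, and PDE3A, the known partner of SLFN12, fell by 2.19 (adjusted p = 0.0266, 0.0505 without E7_CPI replicate 1). SLFN5 (1.42) and SLFN11 (0.71) rose between WNT_ACT and WNT_CPI_ACT, both lost without that library (0.0732 and 0.0944). With the block 3 genes of the list rose there and 0 fell, with or without that library.

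Of 18 HCN channel and early heart genes, 15 were tested, and the heart factors NKX2-5 and HAND2 had at most 8 and 3 counts in any library. Between E7_ACT and WNT_ACT 3 rose, GATA6 and GATA4 with the largest changes, at 143 and 11.0 CPM for GATA6 in WNT_ACT. GATA6 and GATA4 are also among the definitive endoderm markers below, so their calls count in both lists. Without E7_CPI replicate 1 none was called by edgeR (adjusted p = 0.054 and 0.0881 for GATA6 and GATA4), with 5 at an unadjusted p under 0.05, and DESeq2 on all libraries called 5. With the replicate block 4 rose and 1 fell, with or without that library. SHOX2, a sinus node factor, fell between WNT_ACT (3.31 and 0.633 CPM) and WNT_CPI_ACT (0 and 0.0242 CPM; adjusted p = 0.00949), the only call of the list there, against 2 that rose and 5 that fell with the block. Of 16 canonical Wnt targets, 15 were tested (ZNRF3 had no counts), and 6 rose and 0 fell between E7_ACT and WNT_ACT, with a median of 1.53 (11 rose with the block). SP5 went from 0 and 0.076 CPM to 92.9 and 47.5, and APCDD1 rose by 4.45 (SE 0.51, adjusted p = 0.00182). In WNT_CPI_ACT, LEF1 (2.32, 0.0512 without E7_CPI replicate 1) and TNFRSF19 (1.94) were higher and NOTUM was lower (-2.53) than in WNT_ACT, and in WNT_ACT NOTUM (2.24) and APCDD1 (2.48) were higher than in WNT_E7, both lost without that library (0.0933 and 0.0817).

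Summed levels of cell identity markers differed between the 48 h groups in which the 6 genes were tested. The endoderm sum of WNT_ACT was mostly CER1, which averaged 1046 CPM there, while CXCR4 averaged 1.92 in WNT_ACT and 1.57 in E7_ACT. The 7 definitive endoderm markers summed to 2262 and 183 CPM in the WNT_ACT libraries, 33.0 and 16.2 in E7_ACT, 174 and 1.27 in WNT_CPI_ACT and 1.93 and 2.99 in WNT_E7. The 9 primitive streak markers, of which MESP1 stayed under 10 counts in every library, summed to 1597 and 320 CPM in WNT_ACT, 43.3 and 25.7 in E7_ACT, 308 and 58.4 in WNT_CPI_ACT and 16.2 and 16.6 in WNT_E7. FOXA2 is in both the streak and the endoderm list. Between E7_ACT and WNT_ACT 5 of 8 streak markers tested rose, among them EOMES (adjusted p = 0.00725) and GSC (0.0263), and 4 of 7 endoderm markers, among them GATA6 and SOX17, which had no counts in E7_ACT. Without E7_CPI replicate 1 edgeR called 2 and 0 of them, with 6 endoderm markers at an unadjusted p under 0.05, and DESeq2 on all libraries called 5 endoderm markers. With the replicate block 6 streak and 5 endoderm markers rose, with or without that library. EOMES and MIXL1 were also higher in WNT_ACT than in WNT_E7, both lost without that library (0.0961 and 0.0859). EdgeR called no endoderm marker there, with 6 at an unadjusted p under 0.05, and DESeq2 called 6. With the replicate block 6 streak and 6 endoderm markers rose in that comparison, with or without that library. Between WNT_ACT and WNT_CPI_ACT edgeR called none of either list, with 5 of each at an unadjusted p under 0.05. DESeq2 called 3 streak markers and 1 endoderm marker in that comparison, and with the replicate block 4 and 5 fell.

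The levels of the 6 genes can be set beside those sums. The endoderm sum of WNT_ACT replicate 1 was far above that of replicate 2, and in the same libraries DUSP10 was at 10.6 and 9.57 CPM, RGMB at 75.9 and 105.1, RGMB-AS1 at 5.51 and 6.33, GRB14 at 16.7 and 13.6, SLFN12 at 21.4 and 16.4 and HCN4 at 11.8 and 18.3. DUSP10, GRB14 and SLFN12 were thus higher in replicate 1 and the other 3 genes in replicate 2. In WNT_E7 both marker sums were low, and DUSP10, RGMB, RGMB-AS1 and SLFN12 were each above both E7_ACT libraries. WNT_E7 and E7_ACT differ in both Wnt3a and Activin A, and they were not compared in a test. The part of cell identity in the 48 h differences was not tested. In bulk RNA, fewer cells that express a gene and less RNA per cell cannot be told apart.

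Few genes of the other marker lists were called. DPPA4 fell between E7_ACT and WNT_ACT by 0.59 and NANOG between WNT_ACT and WNT_CPI_ACT by 1.24, both lost without E7_CPI replicate 1 (0.0764 and 0.0768). SOX2 and PODXL averaged 397 and 2742 CPM in WNT_CPI_ACT against 236 and 1199 in WNT_ACT, not called in the fit without a replicate term. POU3F2, a neural factor, rose between WNT_ACT and WNT_CPI_ACT by 3.35 (adjusted p = 0.00317) from 0.231 and 0.158 CPM to 2.22 and 1.79, and CDX2 was at 2.20 and 0.435 CPM there against 0.0256 and 0.0791 (0.0657 without that library). OTX2, of the list of POU3F2, averaged 6.29 CPM in WNT_CPI_ACT against 78.2 in WNT_ACT. KRT7, of the list of CDX2, averaged 0.927 against 3.04. Neither was called in the fit without a replicate term. COL1A2 was higher in WNT_ACT than in E7_ACT by 0.94 and than in WNT_E7 by 1.09. THY1, of the same list, averaged 334 CPM in WNT_ACT against 685 in E7_ACT and 446 in WNT_E7, not called in that fit. Of 8 counted genes known to rise under BET inhibition elsewhere, 1 was called in WNT_CPI_ACT: H2BC5, a histone gene, was higher than in WNT_ACT by 1.97 (SE 0.20, adjusted p = 0.000765).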

How the data were processed

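RNA libraries of 8 groups of 2 and ATAC libraries of the same cells were made. The authors deposited raw gene-level counts, in a separate table for each replicate number. Per the submitters' processing notes, the tools were MACS2, Bowtie2, deepTools, featureCounts and DESeq2, with no role or order given, and the builds hg19 and hg38. The aligner, build and strand setting of the RNA counts are not given in the sources used here. The ATAC file, a combined list of peak positions with no value per sample, was not used here.

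Columns were joined by Entrez ID (27348 in both tables, 27322 with a RefSeq symbol), with E7_CPI replicate 1 matched to genes by the row order of the other table. Counts were fitted with edgeR 4.0.16 (R 4.3.3, limma 3.58.1): filterByExpr by group (17355 genes, all 6 members among them), TMM (factors 0.948 to 1.049), 1 coefficient per group, 8 residual degrees of freedom, quasi-likelihood tests (2-sided), Benjamini-Hochberg adjustment over all genes tested, calls at an adjusted p under 0.05. The procedure was tested on simulated data. Intervals are 95% from the fit's SE. Alternatives were RLE factors, other count filters, DESeq2 1.42.0, the compared groups alone, a replicate block, and leaving libraries out.

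Replicate numbers paired the samples: deviations from group means correlated at 0.438 to 0.900 in 21 pairs of groups, but at -0.122 to -0.0407 in the 7 pairs with E7_CPI. The members and gene lists were chosen with earlier results of these data known. Named genes are the 6 members, the 3 genes most like each over the 8 groups (Pearson's r), from each list the 2 called genes with the largest fall and the 2 with the largest rise per tested comparison, and AXIN2 and HEXIM1 as checks.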

Additional observations from a re-analysis of the deposited data

Results flagged for a closer look

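At 24 h, the effect of 1 agent took opposite signs with and without the other, within both replicate numbers, for 5 pairs of a gene and a contrast. All 5 use E7_CPI, whose replicate 1 library lay with replicate 2 and may not be a separate sample. The 2 replicate numbers are thus not separate support. Without that library, CPI-203 in E7 medium gave 2.10 for DUSP10, 0.62 for RGMB and 0.86 for GRB14. Wnt3a with CPI-203 then gave -1.003 for SLFN12 and 1.62 for HCN4. For SLFN12 the Wnt3a effect was lower with CPI-203 than without it by a log2 difference of -2.03, and for HCN4 it was higher by 2.03. The CPI-203 effect was lower in Wnt3a than in E7 medium, with opposite signs, by -3.33 for DUSP10, -2.26 for RGMB and -1.73 for GRB14. These differences were not tested, because the genes were chosen on this contrast.

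In Wnt3a-treated cells, the CPI-203 effect had opposite signs at 24 h and 48 h within both replicate numbers for DUSP10 (log2 difference 1.24) and GRB14 (1.32). For DUSP10 the sign at 48 h is not established: the value there was 0.05, the libraries of the 2 groups overlapped, and it was -0.037 and -0.025 with WNT_CPI_ACT replicate 1 or WNT_ACT replicate 2 left out. These differences between days were not tested either. Their 24 h values helped to choose the genes.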

How the results depend on the processing

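With edgeR, genes called numbered 667 for WNT_ACT against E7_ACT, 1024 for WNT_CPI_ACT against WNT_ACT and 153 for WNT_ACT against WNT_E7 at 48 h. In the same order they were 1126, 1825 and 694 with DESeq2, 1509, 2619 and 773 with the replicate block, and 2024, 3590 and 1130 with the replicate block without E7_CPI replicate 1 (added after the data were seen). With the compared groups only they were 0, 0 and 0 (1307, 1636 and 1005 at an unadjusted p under 0.05), where 4 libraries leave few degrees of freedom. Leaving out 1 library gave 83 to 557, 308 to 767 and 0 to 237; the cause of these shifts was not tested.

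Members called for WNT_ACT against E7_ACT were 4 with every setting except the compared groups only (0, with 4 at an unadjusted p under 0.05), for WNT_CPI_ACT against WNT_ACT 0 with every setting run, and for WNT_ACT against WNT_E7 0 except 1 with DESeq2 (DUSP10) and 1 with the replicate block without E7_CPI replicate 1 (GRB14). The replicate block alone changed no member's call. Values not called changed sign when 1 library was left out: for WNT_ACT against E7_ACT, GRB14 ran from -0.35 to 0.36 and HCN4 from -0.21 to 0.41, for WNT_CPI_ACT against WNT_ACT, DUSP10 from -0.037 to 0.127 and RGMB-AS1 from -0.212 to 0.061, and for WNT_ACT against WNT_E7, RGMB from -0.36 to 0.11, HCN4 from -0.535 to 0.092 and SLFN12 from -0.22 to 0.16. SLFN12 in the last was also 0.006 with RLE factors and 0.006 with DESeq2. Of 336 alternative values of the described 24 h effects, 283 moved by less than the spread between replicates and 53 by more. With 2 libraries per group, the spread between libraries sets the intervals.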
